A study of Homo sapiens with 8 samples.

Results

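The 9 microRNA genes described here, MIR337, MIR370, MIR379, MIR323A, MIR376C, MIR381, MIR382, MIR377 and MIR369, belong to the imprinted DLK1-DIO3 region of chromosome 14q32. They were chosen by the gene symbol of their probes and not by a measured value, though with earlier results of these data known. They made up 9 of 207 features (27 of 621 rows, with 3 consecutive rows read as 3 spots of a feature), and 9 of the 67 features that carry a gene symbol. The samples were K562, a human leukaemia cell line with some erythroid character, profiled for small RNA on 1-colour Cy3 arrays. Day 0 held non-stimulated cells. Days 2, 4, 6, 8, 10 and 22 held cells that had been adapted to StemLineII, a serum-free medium, and then given EPO, the hormone that drives red cell formation, at 7.5 U/ml, together with IL3 at 50 ng/ml. K562 cells are otherwise kept in a medium with fetal calf serum, the labels do not say in which medium the day 0 cells grew, and their extraction text speaks of CD34 cells where all other labels speak of K562. Each day had 1 array and all arrays may come from a single culture series, so every p-value below measures only the scatter between 7 arrays, and their number limits the precision. In bulk RNA, fewer cells that make a microRNA and less of it per cell cannot be told apart. A day 15 column was left out because it equals the mean of days 10 and 22 in 621 of 621 rows.

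In this region a control element that is methylated differently on the maternal and paternal chromosomes lets the maternal copy transcribe long non-coding RNAs, among them MEG3, and the microRNAs are cut from transcripts of the same strand. The paternal copy makes the protein-coding genes DLK1, RTL1 and DIO3 instead. The microRNAs are known as abundant in placenta, embryonic tissue and brain, and as low in many adult cell types. Of 49 genes listed for the region, these 9 were measured under a name.

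Along chromosome 14 the order is MIR337, MIR370, MIR379, MIR323A, MIR376C, MIR381, MIR382, MIR377 and MIR369, all on the plus strand. MIR337 and MIR370 lie 36.6 kb apart, a gap of 111 kb follows, and the other 7 genes stand within the next stretch, with steps of 3.55 to 13.9 kb (RefSeq, GRCh38.p14). The sequences of MIR370, MIR381, MIR382, MIR337 and MIR377 are shown, because MIR370 had the highest signal of the 9, MIR337 and MIR377 the lowest, and MIR381 and MIR382 had the highest correlation of any neighbouring pair. All are RefSeq mature sequences, 5′ to 3′, with the seed (bases 2 to 8), which pairs with target RNAs, in capitals. A symbol names the gene, so the arm that a probe reads is unknown and both are given.
miR-370-5p: cAGGUCACgucucugcaguuac
miR-370-3p: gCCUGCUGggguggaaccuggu
miR-381-5p: aGCGAGGUugcccuuuguauau
miR-381-3p: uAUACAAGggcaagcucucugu
miR-382-5p: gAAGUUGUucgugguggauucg
miR-382-3p: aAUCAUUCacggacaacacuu
miR-337-5p: gAACGGCUucauacaggaguu
miR-337-3p: cUCCUAUAugaugccuuucuuc
miR-377-5p: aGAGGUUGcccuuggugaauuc
miR-377-3p: aUCACACAaaggcaacuuuugu

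The 2 arms of MIR370 lie at chr14:100911151-100911172 and chr14:100911186-100911207, and those of MIR381 at chr14:101045927-101045948 and chr14:101045968-101045989 (GRCh38.p14, plus strand). The array values themselves carry no coordinates. The 9 genes give 18 arms with 18 different seeds, so no pair of them shares one. Across different genes of the set, the closest arms still differed by 7 edits (substitutions, insertions or deletions). Near relatives outside the set were closer. miR-376c-3p differs by 2 edits from miR-376a-3p, miR-379-3p by 2 from miR-411-3p, and miR-323a-3p by 3 from miR-323b-3p. miR-381-3p differs by 3 edits from miR-300 and shares its seed. Whether the probes tell these relatives apart was not tested.

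MIR370 gave the brightest signal of the 9 on average, and MIR337 and MIR377 the dimmest. The signal is given first as height, the Cy3 intensity above the dimmest spot of the same array, since each array's own mean had been subtracted and its true zero is unknown. MIR370, known for a part in lipid metabolism in liver, measured 211 ± 18.7, 297 ± 56.6, 356 ± 13.3, 167 ± 15.3, 59.7 ± 0.58, 93.3 ± 6.03 and 122 ± 10.7 units on days 0, 2, 4, 6, 8, 10 and 22 (SD, n = 3 spots). MIR381 measured 149 ± 16.4, 325 ± 54.6, 248 ± 33.2, 86.7 ± 14.5, 41.7 ± 2.08, 46.3 ± 12.2 and 66.7 ± 1.15 units on the same days. MIR20A, the brightest feature of the day 0 array, measured 12423 units there, so both stood far below the top of the array. These SDs come from spots within an array and hold nothing of the spread between cultures or arrays.

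MIR323A, proposed elsewhere as a pregnancy marker in serum, measured 89.7 ± 12.9, 294 ± 41.0, 220 ± 33.9, 89.7 ± 4.62, 37.0 ± 3.61, 62.7 ± 11.9 and 83.0 ± 13.0 units on days 0, 2, 4, 6, 8, 10 and 22 (SD, n = 3 spots). MIR382 measured 114 ± 15.9, 276 ± 61.9, 201 ± 69.0, 64.7 ± 18.6, 33.0 ± 4.58, 50.3 ± 9.07 and 68.3 ± 1.53. MIR379, the first gene of the larger group, measured 81.0 ± 28.4, 312 ± 42.5, 175 ± 60.0, 58.7 ± 2.08, 36.0 ± 3, 47.0 ± 4.58 and 62.0 ± 6.08. For all 3, days 2 and 4 were high and day 8 was lowest.

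MIR376C, of a family whose precursors are edited from adenosine to inosine, measured 77.7 ± 24.8, 128 ± 9.85, 190 ± 50.3, 68.3 ± 8.50, 30 ± 2.65, 39.7 ± 17 and 58.0 ± 2.65 units on days 0, 2, 4, 6, 8, 10 and 22 (SD, n = 3 spots). MIR369, whose 3p arm is known to bind the AU-rich element of the tumour necrosis factor message, measured 72.7 ± 22.7, 145 ± 53.5, 192 ± 48.2, 56.3 ± 10.1, 32.3 ± 2.08, 33.3 ± 8.39 and 57.3 ± 4.93. Both were higher on day 4 than on day 2, unlike the previous 3 genes, although spots overlapped between the 2 days.

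MIR377, a regulator of matrix production in kidney cells, measured 42.0 ± 42.0, 176 ± 69.5, 149 ± 9.24, 54.0 ± 11.1, 24.0 ± 4.36, 36.3 ± 6.66 and 30.3 ± 5.77 units. MIR337 measured 47.3 ± 7.77, 115 ± 30.1, 84.3 ± 33.8, 58.7 ± 8.08, 13.7 ± 3.79, 22.3 ± 6.03 and 44.7 ± 4.51. On average these were the dimmest of the 9, and 1 spot of MIR377 was itself the dimmest of the day 0 array, with the other 2 at 84 and 42 units.

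**Figure D1:**
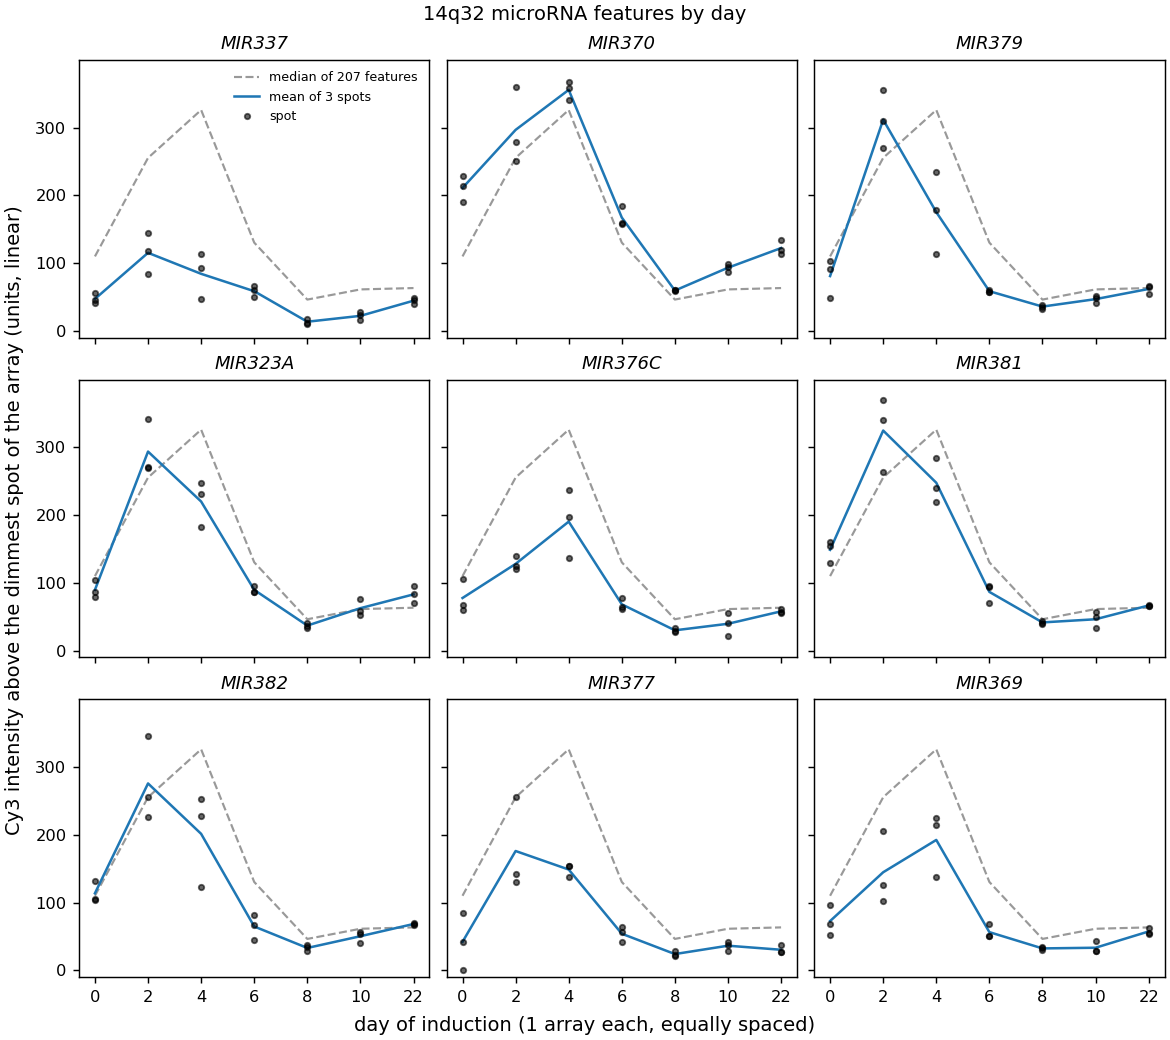
Cy3 intensity above the dimmest spot (vertical axis, linear units) of the 9 features, in chromosome order, on days 0 to 22 (horizontal axis, equally spaced, 1 array each). Points are the 3 spots, blue lines their mean and dashed grey lines the median of 207 features, which was 110, 255, 326, 130, 46.3, 61.3 and 63.3 units. MIR370 lies above the grey line on all 7 days and MIR337 below it.

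The rise and fall in units was shared with the arrays as a whole. All 9 genes had their largest height on day 2 or day 4, and so did 96.6% of the 207 features. The median feature stood at 255 units on day 2 and 326 on day 4 against 46.3 on day 8. The heights of different days are therefore not comparable without scaling, and position within the array is given next, which needs neither a zero nor a scale.

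In percentiles of the 207 features of an array (0 for the dimmest, 100 for the brightest), MIR370 stood at 79.1, 58.7, 57.8, 66.0, 65.8, 72.3 and 88.8 on days 0, 2, 4, 6, 8, 10 and 22. It lay in the upper part of every array, highest on day 22. On the day 22 array the brightest spot stood only 554 units above the dimmest, against 15443 on day 0 and 2098 on day 10. The part of this narrow range in the day 22 positions of all features was not tested. MIR381 stood at 66.5, 64.1, 36.9, 35.2, 43.2, 33.5 and 54.9, so it was above the middle on days 0, 2 and 22 only. MIR323A stood at 36.7, 57.8, 32.3, 37.1, 38.8, 50.5 and 70.1, with day 22 highest. MIR382 stood at 52.4, 54.4, 26.2, 18.4, 34.5, 38.8 and 56.3, and MIR379 at 29.9, 59.7, 20.4, 14.1, 37.9, 34.2 and 48.5. Both were lowest on day 6. The remaining 4 stayed below the middle on all arrays: MIR376C between 12.1 and 44.2, MIR369 between 11.2 and 43.0, MIR377 between 1.46 and 32, and MIR337 between 2.43 and 19.7.

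Markers of tissues foreign to these cultures served as a comparison level; whether K562 cells make any of them was not tested. Of 20 such markers listed, 6 were measured: MIR367, MIR371A, MIR372 and MIR373 of embryonic cells, MIR429 of epithelia and MIR375 of pancreatic islets. The highest of them was MIR373 on days 0, 4, 6 and 22, at percentiles of 65.5, 40.3, 59.0 and 72.3, and MIR429 on days 2, 8 and 10, at 61.2, 49.8 and 44.9. MIR370 lay above the highest marker on 6 of 7 arrays, all but day 2, and 28.0% of the 207 features did so on at least 6. MIR381 lay above it on days 0 and 2, and MIR323A on day 10 alone. The other 6 genes lay above it on 0 of 7 arrays, which held for 30.4% of all features. A signal above the highest marker was thus not detected for these 6. By mean percentile all 6 stood below MIR373 (50.9) and MIR429 (46.3). However, MIR382 (40.2), MIR379 (35.0), MIR376C (25.8) and MIR369 (24.0) stood above MIR371A (21.3), MIR372 (18.8), MIR367 (17.4) and MIR375 (16.0). MIR377 (13.5) and MIR337 (8.08) stood below every marker. On days 0 and 2 MIR381 exceeded the highest marker by less than 3 percentiles, at 66.5 against 65.5 and 64.1 against 61.2.

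**Figure D2:**
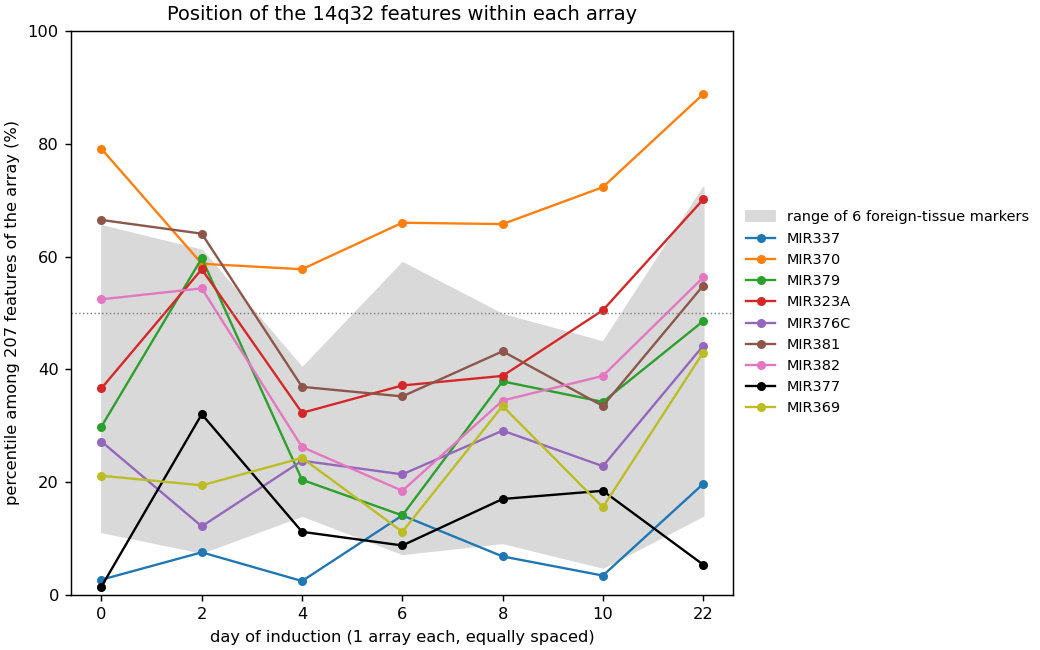
Percentile of each feature among the 207 of its array (vertical axis, %) on days 0 to 22 (horizontal axis, equally spaced, 1 array each), from the mean of 3 spots. The grey band runs from the lowest to the highest of 6 foreign-tissue markers: MIR370 lies above it on 6 of 7 arrays, while MIR337 lies under its lower edge on days 0, 4, 8 and 10.

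After background correction and quantile normalization between arrays, the log2 level of MIR370 averaged 7.57 over 7 arrays, that of MIR381 7.02, MIR323A 6.98, MIR382 6.85, MIR379 6.75, MIR376C 6.57, MIR369 6.52, MIR377 6.33 and MIR337 6.20. The SD over arrays was 0.40 for MIR370, 0.30 for MIR381, 0.31 for MIR323A and 0.19 for MIR377. It measures how a gene varied over time, and differences between genes on the same arrays were not tested. Probes differ in affinity, so the mean levels give an order of signal and not of abundance. By this mean MIR370 ranked 54 from the top among the 207 features. MIR373, the highest marker, ranked 96 with an average of 7.11, and MIR370 was the 1 gene of the 9 above it. On the scale of mean height MIR370 at 187 and MIR381 at 137 units were above it, against 134 for MIR373. Such a mean of unscaled heights weighs days 2 and 4 most, when the median feature stood at 255 and 326 units, against 46.3 on day 8. How many of all features exceeded MIR373 on that scale was not counted. The median of the 9 was 6.75 and that of all 207 features 7.04.

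For 4 of the 9, single spots within an array spread about as much as the 3-spot means did over arrays, or more. The SD of the 3-spot means over 7 arrays, divided by the SD of the 3 spots within an array (root mean square over arrays), was 2.80 for MIR370, 1.79 for MIR323A, 1.63 for MIR381, 1.47 for MIR379 and 1.28 for MIR382. It was 1.04 for MIR337, and 0.83, 0.75 and 0.68 for MIR369, MIR377 and MIR376C. The median ratio was 1.28 for the 9 genes and 1.68 for all features. A mean of 3 spots scatters less than a single spot, so spot scatter alone would give a ratio below 1. Ratios below 1 were not particular to the set: the foreign markers MIR367, MIR371A and MIR375 had 0.62, 0.65 and 0.68. The markers MIR372, MIR373 and MIR429 had 1.65, 1.28 and 1.61. How many of all features had a ratio as low as these 4 genes was not counted. The disagreement of spots went with their order in the table. The number of the 9 whose first spot was dimmer than the third was 0, 8, 1, 9, 5, 0 and 5 on days 0, 2, 4, 6, 8, 10 and 22, against 36.7%, 91.8%, 51.2%, 73.9%, 33.3%, 17.9% and 44.0% of all features. The part of spot position in the values was not tested.

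None of the 9 passed the limma trend test along the time course, which fits a line through the order of the 7 time points and adjusts p-values over 207 features. Over the whole course the fitted log2 change was 0.50 ± 0.41 for MIR370 (SE, n = 7 arrays) and 0.48 ± 0.34 for MIR323A. It was 0.33 ± 0.26 for MIR376C, 0.27 ± 0.29 for MIR369, 0.18 ± 0.27 for MIR337 and 0.11 ± 0.39 for MIR379. On the negative side stood MIR381 at -0.41 ± 0.34, MIR377 at -0.098 ± 0.29 and MIR382 at -0.018 ± 0.37. The adjusted p of the 9 ran from 0.694 to 0.971 (limma, Benjamini-Hochberg), and 0 of 9 had an unadjusted p under 0.05 against 8.70% of the features. Over all features 0.483% passed with a fall, which is 1 feature, MIR19A (-2.84 ± 0.46, adjusted p = 0.0476, limma), and 0% passed with a rise. That count became 3 without the day 0 array and 0 without any 1 of the others. The median change was 0.18 for the 9 and 0.038 for all features.

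The sign of these changes depended on how arrays were scaled. Without normalization all 9 were negative, with a median of -1.0, while the median of all features was -1.19 and only 0.966% of them were positive. When arrays were centred on their median or scaled to their 75th percentile, 8 of 9 were positive, against 65.2% and 76.3% of all features. The medians were 0.41 and 0.60 for the 9, against 0.22 and 0.41 for all features. MIR381 was negative under all 4 scalings, at -0.41, -1.77, -0.36 and -0.16. No scaling brought any of the 9 past the threshold in the limma trend test. Single arrays decided signs too. Without day 22 the change of MIR370 was -0.13, that of MIR379 -0.16, that of MIR337 -0.055 and that of MIR369 -0.00025, while MIR377 turned to 0.13. The changes of MIR323A and MIR376C kept their sign there but came to 0.12 and 0.11. MIR377 also turned to 0.071 without day 2, and MIR382 to 0.27, 0.14 and 0.019 without days 0, 2 and 8. MIR381 stayed negative without each array in turn, between -0.90 and -0.13.

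**Figure D3:**
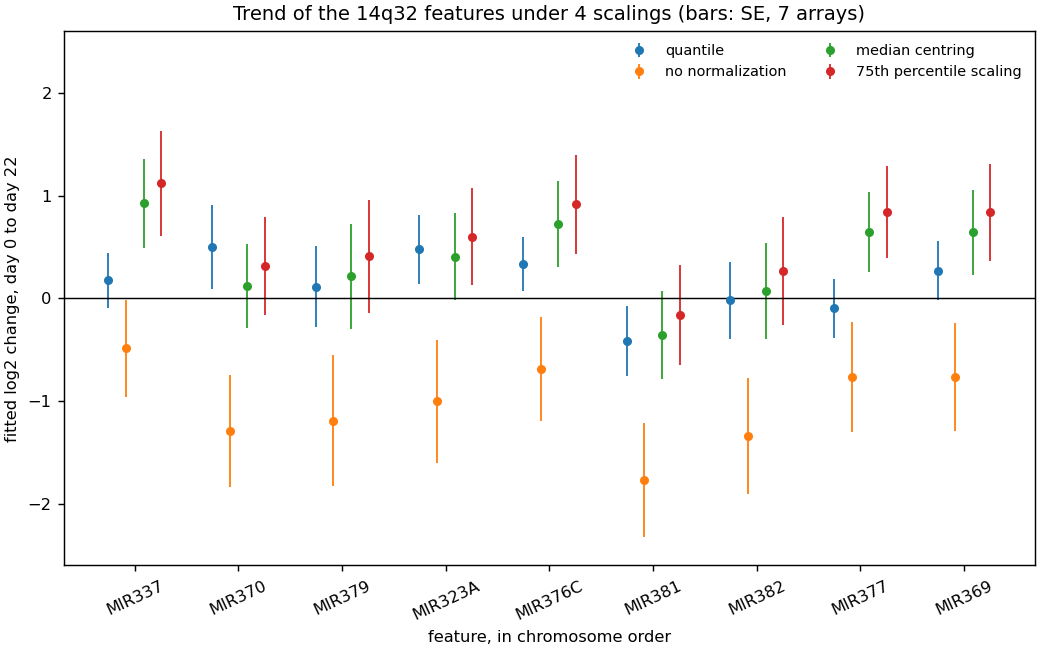
Log2 change fitted over the 7 time points (vertical axis) of the 9 features in chromosome order (horizontal axis) under 4 scalings of the arrays; points are limma estimates and bars their SE over 7 arrays. Orange points, without normalization, are all below 0, and the one closest to 0 is MIR337 at -0.48.

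A step between days 0 to 6 (4 arrays) and days 8 to 22 (3 arrays) was not found either. MIR370 averaged 7.42 before and 7.77 after, a step of 0.35 with an SE of 0.28 (limma, Benjamini-Hochberg adjusted p = 0.681), the largest positive one, and MIR381 averaged 7.08 and 6.95, the most negative at -0.13 ± 0.25 (adjusted p = 0.865). Leaving out day 22 gave MIR370 a step of 0.061, leaving out day 8 one of 0.50, and leaving out day 0 gave MIR381 one of 0.0027. Of the 9, 7 were positive and 2 negative, with a median of 0.20 against 0.020 for all features. Again 0 of 9 passed, with 0.483% of all features called, MIR19A again, and 0 of 9 had an unadjusted p under 0.05, against 9.18%. Without normalization the call changed for 2 genes: MIR370 fell by 1.01 ± 0.32 and MIR381 fell by 1.14 ± 0.37 on the log2 scale (adjusted p = 0.0414 and 0.0425, limma with Benjamini-Hochberg). In that fit 30.0% of all features passed the threshold with a fall, and the median step of all features was -0.90.

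A dip in the middle of the course, fitted as a second-order term, was past the threshold for none of the 9; the lowest adjusted p-values were those of MIR370, MIR382 and MIR381. MIR370 had log2 levels of 7.84 on day 0, then 7.22, 7.22, 7.40, 7.42 and 7.55 on days 2 to 10, and 8.34 on day 22. Its later levels were below day 0 on 5 arrays and above it on day 22. MIR382 had 7.09, 7.13, 6.57, 6.41, 6.70, 6.83 and 7.22 over the 7 days, lowest on day 6. MIR381 had 7.46, 7.33, 6.80, 6.72, 6.95, 6.72 and 7.18. In this limma fit the adjusted p was 0.194 for MIR370, 0.291 for MIR382 and 0.298 for MIR381 (Benjamini-Hochberg). An unadjusted p under 0.05 with a dip was reached by 2 of 9, MIR370 and MIR382, and by 10.6% of all features, while 0% of the features passed after adjustment in limma. Without day 0, 35 features passed, 0 of them among the 9. The second-order terms, 0.81 ± 0.24, 0.67 ± 0.25 and 0.55 ± 0.24 (SE), were -0.055, 0.090 and -0.064 without normalization. They also rested on the ends of the course: MIR370 had 0.41 without day 0 and 0.44 without day 22, and MIR381 had 0.29 without day 22.

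Against day 0, MIR381 was lower at all 6 later time points, on average by -0.51 on the log2 scale, and 11.1% of all features were lower throughout. None of the 9 was higher throughout, against 11.6% of all features. The mean differences of the others ran from -0.32 for MIR370 to 0.27 for MIR323A. After quantile normalization a distance of at least 1 from day 0 on any later day was reached by 0 of 9 and by 29.0% of the features, and the largest among the 9 was 0.78, for MIR323A on day 22. This count moved with the scaling. It was 4 of 9 without normalization (MIR323A, MIR370, MIR379 and MIR381), against 72.0% of the features, 0 of 9 after median centring, against 31.9%, and 3 of 9 after 75th percentile scaling (MIR337, MIR381 and MIR382), against 41.5%. These differences are between single arrays and were not tested. With all arrays after quantile normalization, 1 of 9 lay on one side of day 0 throughout, against 47 of 207 features. Without normalization 0 of 9 did, against 12 of 207 features. Without the day 22 array, 3 of 9 did, against 59 of 207 features.

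The middle of the 9 within the array differed between days. The median percentile of the 9 was 29.9, 54.4, 24.3, 18.4, 34.5, 33.5 and 48.5 on days 0, 2, 4, 6, 8, 10 and 22, against 20.8, 22.8, 30.2, 18.1, 17.2, 18.9 and 37.1 for the 6 foreign markers. From day 2 to day 4, 7 of 9 moved to a lower percentile, as did 55.6% of all features, while MIR376C moved from 12.1 to 23.8 and MIR369 from 19.4 to 24.3. MIR379 moved from 59.7 to 20.4 and MIR382 from 54.4 to 26.2, while the marker MIR429 moved from 61.2 to 14.1 and 4 of the 6 markers moved up. From day 10 to day 22, 8 of 9 moved to a higher percentile, as did 58.0% of all features, with MIR377 the exception at 18.4 and 5.34. In units above the dimmest spot 8 of 9 were also higher on day 22 than on day 10, against 61.4% of all features, although MIR20A stood at 1449 units on day 10 and 136 on day 22. All 6 foreign markers had a higher percentile on day 22 than on day 10 as well. The part of array background in these differences was not tested.

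Correlations between the 9 were mostly positive over 7 arrays, and depended on day 22 and on the normalization. Over 36 pairs the median Pearson r of log2 levels across 7 arrays was 0.42, with 31 pairs above 0. Across all pairs of features it was -0.0071, with 10566 of 21321 above 0. Without day 22 the median was 0.14, with 22 pairs above 0, against -0.0065 and 10577 of 21321 for all pairs of features. Without normalization the median was 0.85, with 36 of 36 pairs above 0, against 0.76 and 20915 of 21321 for all pairs of features. MIR381 and MIR382, 8.39 kb apart, had r = 0.83 with all arrays and 0.86 without day 22, and MIR379 and MIR323A, 3.68 kb apart, had 0.78 and 0.85. MIR370 and MIR376C had 0.90, which became 0.59 without day 22. MIR377 opposed MIR370 and MIR376C at -0.69 and -0.68, or -0.53 and -0.56 without day 22. Nearness on the chromosome did not order the pairs (r = -0.030 between correlation and distance over 36 pairs, which share genes and arrays): MIR377 and MIR369, the closest pair at 3.55 kb, had r = -0.35 with all arrays and 0.12 without day 22. These values describe 7 arrays and carry no test.

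**Figure D4:**
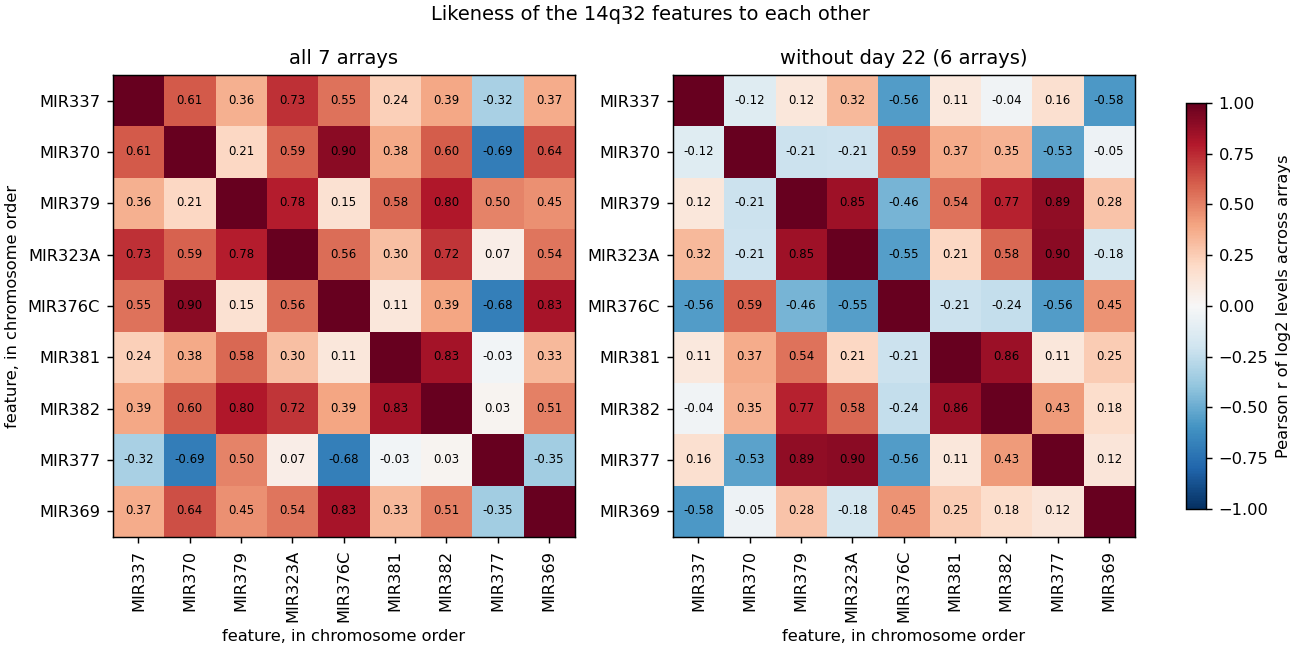
Pearson r of quantile-normalized log2 levels for each pair of the 9 features (both axes in chromosome order; red positive, blue negative), over 7 arrays on the left and without day 22 on the right. Red cells are fewer on the right, where the median of 36 pairs was 0.14 against 0.42 on the left.

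The named features outside the set whose pattern was most like the mean of the 9 (each centred on its own mean) were MIR450A1 with r = 0.92, MIR345 with 0.91, MIR429 with 0.90, MIR378A with 0.89 and MIR449A with 0.88 over 7 arrays. Without day 22 they had 0.96, 0.90, 0.80, 0.92 and 0.70. MIR429 is one of the foreign markers. Of the 9 themselves MIR382 was most like that mean at 0.92, which includes its own value, and MIR377 least at -0.086.

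Base composition differed among the 9 and went with signal, without a test. The GC content averaged over both arms was 62.6% for MIR323A, 61.4% for MIR370, 45.5% for MIR381, 44.3% for MIR337, 44.0% for MIR382, 43.2% for MIR377, 42.0% for MIR379, 38.1% for MIR376C and 34.6% for MIR369. Across the 9 genes r with the mean log2 level was 0.70, or 0.48 without MIR370. Over the 65 named genes with a mature sequence in the table it was -0.089, and over the 56 of them outside the set -0.13. The richest single arm, miR-323a-5p, had 72.7% GC and the poorest, miR-369-3p, 23.8%.

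Of 7 listed microRNAs of red cell precursors, 4 were measured. MIR15B averaged a percentile of 93.4 and MIR15A 75.6, above the 69.8 of MIR370, while MIR96 stood at 54.2 and MIR22 at 45.4. MIR15B lay above the highest foreign marker on 7 arrays and MIR15A on 6, as MIR370 did, while MIR96 and MIR22 did so on 3 each. By mean percentile MIR22 stood below the foreign markers MIR373 (50.9) and MIR429 (46.3), while MIR15B, MIR15A and MIR96 stood above both. Of 3 listed myeloid microRNAs 0 were measured under a name. The identity of the cell line was not tested.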

How the data were processed

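Per the labels, small RNA was isolated and labelled with Cy3 using Ambion kits, and the deposited values are linear intensity with the mean of each array subtracted (from the values: columns average 0). Scanner and image settings stand as not given in the sources used here. Probes were named from the platform annotation, and all 9 genes had mature sequences in RefSeq (GRCh38.p14). The whole table was corrected with normexp (offset 50), taken to log2, quantile-normalized and averaged over 3 spots in limma 3.58.1 (R 4.3.3). Trend, step and curvature were fitted with lmFit and eBayes on 7 arrays (5 residual degrees of freedom, 4 for curvature) and tested on simulated data; the Benjamini-Hochberg adjustment ran over all 207 features (threshold 0.05). The trend is the slope times 6 steps. Offsets and normexp shrink differences of dim features, but quantile normalization then changed them in both directions. On day 22 MIR370 and MIR337 stood at 7.08 and 6.00 before that step and at 8.34 and 6.48 after it. On day 4 they stood at 8.31 and 6.42 before and at 7.22 and 6.02 after. Fold changes of these genes may therefore be understated or overstated, which was not tested. All 9 genes are described, with foreign markers and the 5 most similar named features beside them. Members, lists and tests were chosen with earlier results of these data known. Alternatives were other scalings, backgrounds, filters, time scales, array weights, ranks, single rows, a term for days 8 to 22 and leaving out each array. An order with a gap for day 15, and other scalings of the largest distance from day 0, were added after seeing the data. Figures used matplotlib 3.10.9 in Python 3.11.15.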

Additional observations from a re-analysis of the deposited data

How the results depend on the processing

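No call of the 9 genes was made by the trend or curvature test in any alternative. The limits are 1 array per day, an unknown zero and signals close to those of foreign markers. Without normalization the trend changes were -1.0 for MIR323A, -0.48 for MIR337, -0.77 for MIR369, -1.29 for MIR370, -0.69 for MIR376C and -1.19 for MIR379, the step was -1.01 for MIR370, and curvature was -0.055 for MIR370 and -0.064 for MIR381. Calls over all features were then 2 for trend, 62 for the step, with 2 of the 9, and 6 for curvature; 12 features, 0 of the 9, lay on one side of day 0. Otherwise the trend test called 1 feature, but 10 on a scale of days, and 0 with array weights, percentile ranks, log2 of day plus 1 or a term for days 8 to 22; the step test called 1, but 2 with array weights and 0 with ranks. MIR377's trend was 0.64 after median centring, 0.84 after 75th percentile scaling, 0.066 with the dimmest spot at 50, 0.11 with array weights and 0.093 for its median row. MIR382's was 0.071 after median centring, 0.27 after 75th percentile scaling, 0.24 on days and 0.057 with a gap for day 15. With the term for days 8 to 22 MIR369 had -0.066 and MIR379 -0.56. After 75th percentile scaling the step of MIR381 was 0.12. With the dimmest spot at 50, 48 features and 2 of the 9 lay on one side of day 0. Above the median level 22 features and 0 of the 9 did. By mean height MIR370 and MIR381 exceeded the highest marker, and how many of all features did so was not counted. The median percentile of the 9 was 35.0, or 39.0 from first spots alone. Leaving out each later array put 1 to 3 of the 9 on one side of day 0, and 50 to 59 of all features. Leaving out each array in turn gave 0 to 3 trend, 0 to 4 step and 0 to 35 curvature calls. Trends then ran from -0.055 to 0.29 for MIR337, -0.000248 to 0.43 for MIR369, -0.13 to 1.12 for MIR370 and -0.34 to 0.13 for MIR377. They ran from -0.16 to 0.42 for MIR379, -0.51 to 0.27 for MIR382, 0.12 to 0.66 for MIR323A and 0.11 to 0.54 for MIR376C. The step ran from -0.26 to 0.00271 for MIR381 and from 0.061 to 0.50 for MIR370, and curvature from 0.41 to 0.83 for MIR370, 0.29 to 0.63 for MIR381 and 0.46 to 0.69 for MIR382. The causes of these changes were not tested.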
